A study of Mus musculus with 24 samples.

Results

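The oxidative phosphorylation subunits encoded in the nucleus were examined in the livers of mice fed a control or a methionine-restricted diet, with and without NRF2 in hepatocytes. Members were the genes named Ndufa, Ndufb, Ndufc, Ndufs, Ndufv, Sdha to Sdhd, Uqcr, Cox4 to Cox8 or Atp5, plus Cyc1, without assembly factors and names of pseudogenes. The choice used names only and took 82 of the 15160 genes with counts, 38 in complex I, 4 in complex II, 9 in complex III, 14 in complex IV and 17 in complex V. Every one of the 82 is annotated as protein-coding and passed the filter on low counts, which kept 13336 genes. Ndufa4 and Ndufa4l2 are counted under complex I by their names, although NDUFA4 is now regarded as a subunit of complex IV. WT mice were Nfe2l2 fl/fl, with both alleles of the NRF2 gene floxed. NRF2 KO mice were Nfe2l2 fl/(Alb), in which Cre driven by the albumin promoter removes sequence of exon 5 in hepatocytes, so other liver cells keep the gene. The Con diet held 0.86% methionine and the MR diet 0.17%, fed from 8 weeks of age for 8 weeks by the paper's legends. Its methods for the 8-week experiment place calorimetry and a re-equilibration between those weeks and tissue harvest. All mice were males, labelled as 5 months old and killed after a 4 h fast. The fits used 5 WT mice on Con, 5 WT mice on MR, 6 NRF2 KO mice on Con and 6 on MR. WT_CON_7604 and WT_MR_7612 were not part of the fits, following the study. Values are 3′ counts in CPM, each library's counts relative to its total after scaling between libraries by TMM, with 1 library per mouse. In these bulk samples, fewer cells of a type and less RNA per cell cannot be told apart.

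Complexes I to IV of the inner mitochondrial membrane pass electrons from NADH and succinate to oxygen and, apart from complex II, pump protons. Complex V, the ATP synthase, uses the returning protons to make ATP. Most subunits are encoded in the nucleus and imported, a few core subunits are made from mitochondrial DNA, and liver relies on this pathway to power gluconeogenesis and ureagenesis.

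Libraries held from 6197291 to 22068338 counts, with a median of 15019791.5. The 6 hepatocyte markers were present in every mouse and summed to between 72980 and 128300 CPM, with group medians of 106600 on Con and 82380 on MR in WT mice, and of 119600 and 98980 in NRF2 KO mice. Most of that sum was Alb. In both genotypes the means of Alb, Apoa1, Ttr and Serpina1c were lower on MR, while those of Tat and Cps1 were higher. Counts of Nfe2l2 come from its 3′ end, were higher in NRF2 KO than in WT mice and so do not measure the loss of the excised sequence. They were 106, 125, 117, 324 and 118 CPM in WT Con mice, and 228 to 339 CPM in NRF2 KO Con mice. On MR the range was 94.0 to 107 CPM in WT and 202 to 249 CPM in NRF2 KO mice. The library labelled WT_CON_7607 is the 1 WT library at the level of the NRF2 KO mice, so the main results that use the WT Con group are also given without it. In edgeR, Nfe2l2 was 0.83 higher (log2, adjusted p = 0.0453) in NRF2 KO than in WT mice on Con, or 1.27 higher without that library, a call lost in 20 of the 22 fits that left out 1 mouse, and it was also higher on MR (adjusted p = 0.00353). The 82 members took a median of 1.93% of all counts on Con and 2.10% on MR in WT mice, and 2.00% and 2.06% in NRF2 KO mice.

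Most of the subunits had small fitted changes with dietary MR in both genotypes. The largest change was that of Cox6a2, the heart and muscle form of a cytochrome c oxidase subunit, which rose by 4.46 on the log2 scale in WT and by 3.98 in NRF2 KO mice. In WT mice, the quasi-likelihood test of edgeR (Benjamini-Hochberg, all 13336 genes) called 4 of 82 members (4.88%), 3 higher and 1 lower, where it called 13.8% of all genes, 6.91% higher and 6.91% lower. In NRF2 KO mice it also called 4 of 82 (4.88%), 1 higher and 3 lower, against 12.6% of all genes, 6.23% higher and 6.34% lower. At an unadjusted p under 0.05 there were 11 members in WT and 18 in NRF2 KO mice, against 28.3% and 27.3% of all genes. Averaged over genotypes, MR changed 13 of 82 (15.9%), 3 higher and 10 lower, against 27.4% of all genes, of which 13.3% were higher and 14.1% lower. The 95% interval of the change lay within 1.5-fold either way for 76 members (92.7%) in WT and for 76 (92.7%) in NRF2 KO mice, against 56.7% and 63.3% of all genes. These shares depend on precision as well as on the size of the change. The median SE was 0.0962 for members and 0.145 for all genes in WT mice, and 0.0877 and 0.13 in NRF2 KO mice. The 6 members whose interval reached beyond 1.5-fold were the same in both genotypes, namely Ndufa4l2, Ndufs5, Sdhd, Cox6a2, Cox6b2 and Cox7a1. Median log2 fold changes over the members were 0.027 in WT and -0.049 in NRF2 KO mice, against -0.0062 and -0.0042 over all genes. Positive values were found for 48 members in WT and for 23 in NRF2 KO mice, while 49% and 49.2% of all genes were above 0, and the difference between these counts was not tested.

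**Figure D1:**
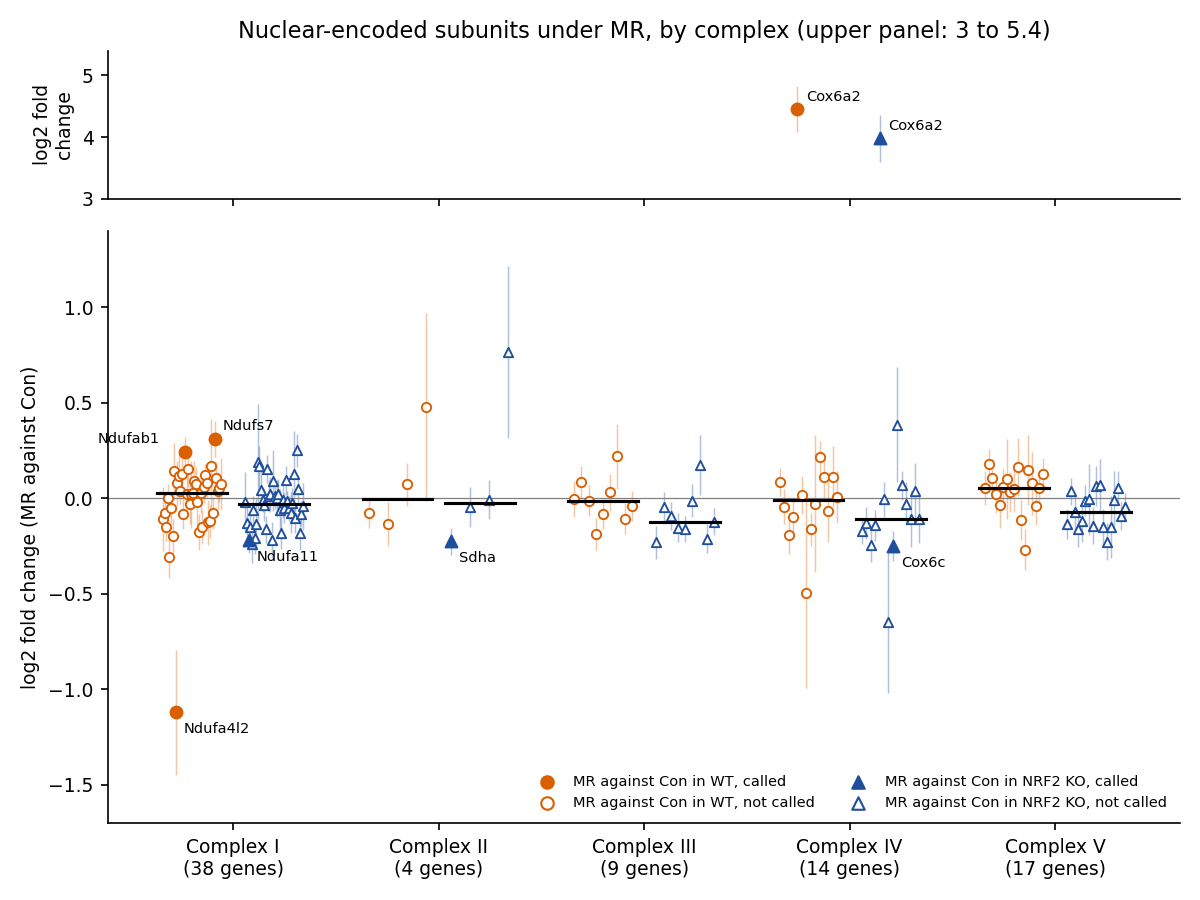
Fitted log2 fold change of MR against Con for each of the 82 subunits, by complex, with circles for WT, triangles for NRF2 KO, bars for the standard error, filled symbols for genes called at an adjusted p under 0.05 and black lines for the median of each complex. Apart from Cox6a2, shown at 4.46 and 3.98 in a separate upper panel, most subunits sit near 0 in both genotypes.

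These counts moved with the scaling and with single mice. With scaling by library size only, which moved the median of all genes by 0.093 in WT and 0.16 in NRF2 KO mice, the split was 8 higher and 1 lower in WT (11% of members, against 14.7% of all genes), 8 higher and 0 lower in NRF2 KO (9.76%, against 20.9%), and 28 higher and 1 lower on average (35.4%, against 34.1%). On average the share of members was then not below that of all genes. The 1 lower on average was Ndufa13, and the other 9 members called lower with TMM kept negative values of -0.12 to -0.024 that did not pass the test. The WT count went to 2 without WT_CON_7605, WT_MR_7611 or WT_MR_7616 and to 1 without WT_MR_7613. Without the library labelled WT_CON_7607 it was 3, namely Cox6a2 higher, and Ndufa4l2 and Ndufa13 lower, the WT median was -0.017 and the count on average was 15. The NRF2 KO count was 10 without KO_MR_7632, with 9 lower, or 12.2% of members against 11.8% of all genes, and 7 without KO_CON_7622. It was 2 without KO_MR_7627 or KO_MR_7629, and 1 without KO_CON_7617, KO_CON_7620, KO_CON_7621, KO_MR_7625, KO_MR_7628 or KO_MR_7631.

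Cox6a2 lies on chromosome 7 from 128205435 to 128206387 (GRCm38, minus strand), inside the span of Itgad on the opposite strand, and Itgad was not among the genes with counts. Its levels in WT Con mice were 0.146, 0.380, 0.417, 0.433 and 0.336 CPM, or 2 to 8 counts. In WT MR mice they were 5.38, 10.1, 9.08, 6.48 and 7.51 CPM, or 43 to 195 counts. Every WT MR mouse was above every WT Con mouse. The level averaged 0.343 ± 0.116 CPM (SD, n = 5) on Con and 7.71 ± 1.92 CPM (SD, n = 5) on MR, a fitted log2 fold change of 4.46 (SE 0.37, edgeR adjusted p = 3.67e-08). NRF2 KO mice ranged from 0 to 0.492 CPM on Con with a median of 0.210, and from 1.49 to 5.59 CPM on MR with a median of 3.49. Again the diet groups did not overlap, and the log2 fold change was 3.98 (SE 0.39, edgeR adjusted p = 8.24e-07). A two-sided exact permutation test gave p = 0.00794 in WT and p = 0.00216 in NRF2 KO mice, each the smallest that these group sizes allow, and 0.0159 for both after adjustment over 8 such tests. The genes so tested, Cox6a2 and Ndufa4l2, were picked for their large changes in these data, a choice that the adjustment leaves out. Diet groups that do not overlap give this smallest p. They were found for 9.32% of all genes in WT and 5.45% in NRF2 KO mice. The rise was called in each fit that left out 1 mouse and under every other setting tried that kept the gene, and in WT it was 4.54 (adjusted p = 3.86e-07) without the library labelled WT_CON_7607. The setting of at least 10 counts in every mouse dropped the gene. With 0 to 8 counts in the Con mice of the fits, Cox6a2 passed the filter on low counts only through its MR mice. Its calls thus rest on values that also decided its inclusion.

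NRF2 KO mice reached a lower Cox6a2 level on MR than WT mice. The NRF2 KO MR mice overlapped the WT MR mice only at 5.38 to 5.59 CPM, and the log2 difference was -1.10 (SE 0.26, edgeR adjusted p = 0.0237, 95% interval -1.64 to -0.55). The two-sided exact permutation test gave p = 0.0108, or 0.0173 after adjustment over 8 tests. On Con the difference was -0.62 (SE 0.56, edgeR adjusted p = 0.671), resting on 0 to 8 counts per mouse, and it went to -0.38 without KO_CON_7618 and to -1.25 with all 24 mice. The diet effect itself was not shown to differ between genotypes, with an interaction of -0.48 (SE 0.66, edgeR adjusted p = 0.911, 95% interval -1.84 to 0.89). The interaction was -0.17 without KO_CON_7623, -0.72 without KO_CON_7618 and 0.0029 with all 24 mice, and it was called in none of these fits. The call on MR was lost without WT_MR_7611, WT_MR_7613, WT_MR_7616, KO_MR_7625, KO_MR_7628 or KO_MR_7631, where the difference was -1.11 to -0.97 with adjusted p from 0.0526 to 0.0901. It was also lost with the deposited normalized values in limma (-1.17, adjusted p = 0.158) and in the fit of only the groups compared (-1.10, edgeR adjusted p = 0.0515).

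Because Cox6a2 is a muscle and brown fat isoform, markers of those tissues were set beside it. Of 11 skeletal muscle markers 10 had counts, summing to medians of 6.26 CPM on Con and 7.97 on MR in WT mice and of 4.77 and 5.46 CPM in NRF2 KO mice, with no single marker above 3.36 CPM. The sums ranged from 3.22 to 10.9 CPM and overlapped among all 4 groups. Of 6 heart markers 2 had counts, and their sums ranged from 0.452 to 1.66 CPM. Of 7 adipose markers 5 had counts, and their sums had medians of 154 CPM on Con and 50.7 on MR in WT mice and of 78.8 and 7.81 CPM in NRF2 KO mice, lower on MR. Nearly all of that sum was Elovl3, a fatty acid elongase that liver also expresses, while Ucp1, which defines brown fat, averaged 0.345 to 0.437 CPM in the 4 groups.

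Cox6a1, the form of the same subunit used in most tissues, did not pass the test. It stood at 701, 697, 679, 541 and 550 CPM in WT Con and at 596, 595, 619, 545 and 603 CPM in WT MR mice. The ranges overlapped, with a log2 fold change of -0.10 (SE 0.09, edgeR adjusted p = 0.509) in WT and -0.14 (SE 0.08, edgeR adjusted p = 0.278) in NRF2 KO mice. NRF2 KO mice ranged from 539 to 690 CPM on Con and from 524 to 648 CPM on MR.

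**Figure D2:**
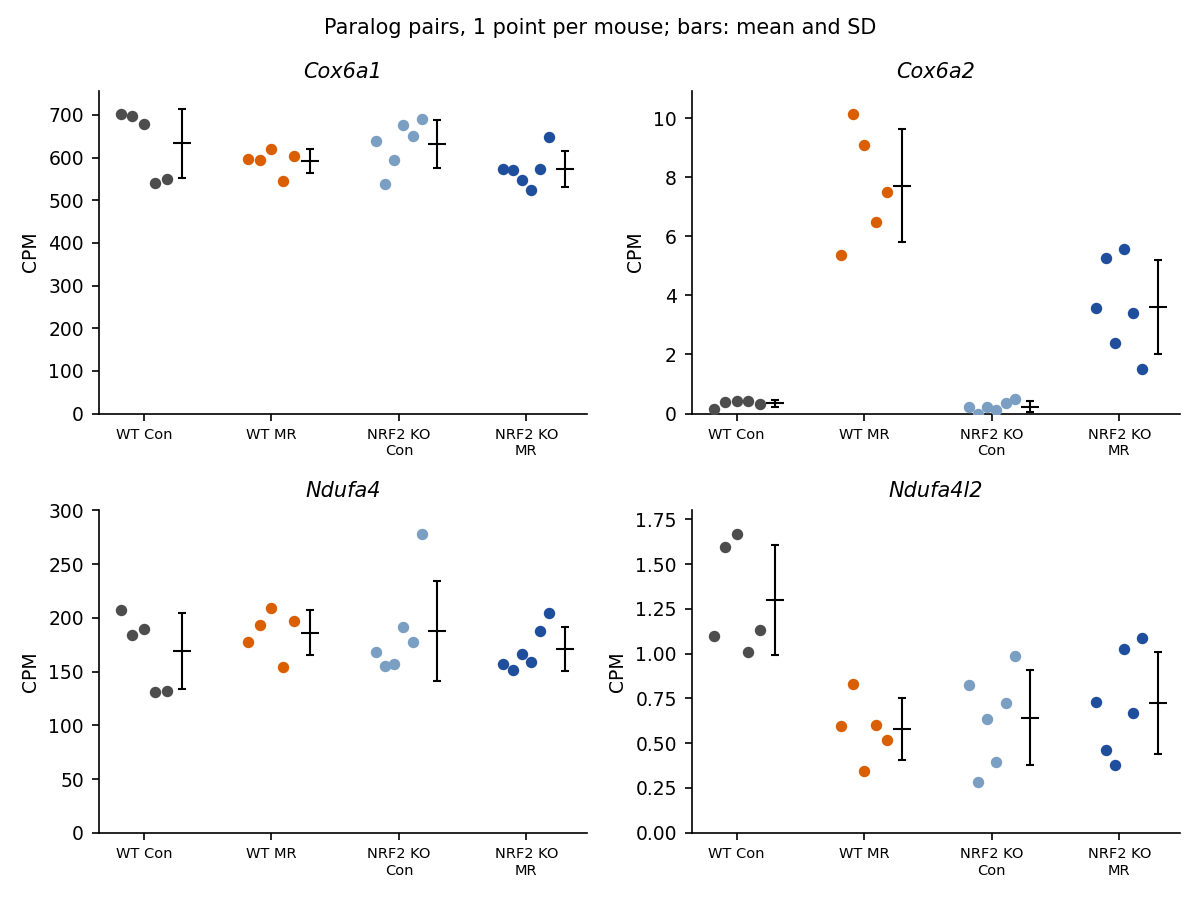
Levels of 2 pairs of related subunits in each mouse (CPM, 3′ counts), with the group mean and SD. Cox6a2 is high in every MR mouse of both genotypes while Cox6a1 overlaps between diets. Ndufa4l2 tends to be lower in the other groups than in WT mice on Con, with which the NRF2 KO mice on MR overlap.

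Ndufa4l2, a paralog of Ndufa4 known as a hypoxia-induced protein, was the 1 member called lower in WT mice. Its levels were 1.10, 1.60, 1.67, 1.01 and 1.13 CPM in WT Con and 0.598, 0.831, 0.346, 0.603 and 0.518 CPM in WT MR mice, from 4 to 32 counts over all mice. The WT diet groups did not overlap, and the log2 fold change was -1.12 (SE 0.33, edgeR adjusted p = 0.0241; two-sided exact permutation p = 0.00794, the smallest possible). NRF2 KO mice were low on both diets, at 0.282 to 0.984 CPM on Con and 0.378 to 1.09 CPM on MR, with a log2 fold change of 0.19 (SE 0.30, edgeR adjusted p = 0.738). On Con the NRF2 KO mice lay below every WT mouse, by -1.02 (SE 0.30, edgeR adjusted p = 0.0776; DESeq2 adjusted p = 0.0476). The interaction of 1.31 (SE 0.45, 95% interval 0.39 to 2.23) had an unadjusted p of 0.00713 and an edgeR adjusted p of 0.440. The call in WT was lost without WT_CON_7603, WT_CON_7605, WT_MR_7613 or WT_MR_7616, at adjusted p from 0.0524 to 0.0655, and with all 24 mice, at -0.84 and 0.0590. Without the library labelled WT_CON_7607 it stood at -1.19 (adjusted p = 0.0257). In WT_MR_7612, which was not part of the fits, Ndufa4l2 was at 1.09 CPM, inside the WT Con range.

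The last 32 bases of Ndufa4l2 (chromosome 10, 127514967 to 127517154, plus strand) overlap Shmt2, a mitochondrial serine hydroxymethyltransferase on the opposite strand, which averaged 110 CPM and was not called in WT mice (0.25, edgeR adjusted p = 0.110). Whether the counting used strand is not given in the sources used here. Markers of stellate cells (4 of 4 with counts) summed to a median of 404 CPM on Con and 319 on MR in WT mice and of 415 and 379 CPM in NRF2 KO mice. Other lists also moved in WT mice. Median sums on Con and MR were 36.8 and 15.1 CPM for bile duct and 187 and 143 CPM for macrophages, both lower on MR. For endothelium they were 156 and 167 CPM, higher on MR. The part of any cell type in the result was not tested. Ndufa4 itself gave 0.14 (SE 0.15) in WT and -0.13 (SE 0.14) in NRF2 KO mice, with neither called.

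In complex I, the NADH dehydrogenase, 2 subunits rose with MR. Ndufs7, which carries an iron-sulfur cluster next to the quinone site, stood at 86.3, 79.5, 83.0, 62.1 and 70.3 CPM in WT Con and at 84.1, 99.3, 101, 93.9 and 95.1 CPM in WT MR mice. The groups overlapped slightly, and the log2 fold change was 0.31 (SE 0.09, edgeR adjusted p = 0.0276). NRF2 KO mice ranged from 64.6 to 91.3 CPM on Con and from 80.3 to 99.4 CPM on MR, which gave 0.25 (SE 0.09, edgeR adjusted p = 0.0534), and the average over genotypes was 0.28 (SE 0.06, adjusted p = 0.00184). The WT call was lost without the library labelled WT_CON_7607 (0.25, adjusted p = 0.0688) and without WT_CON_7608, WT_MR_7611 or WT_MR_7613, and with only the groups compared (0.31, adjusted p = 0.0539). Ndufab1, the mitochondrial acyl carrier protein that is also a complex I subunit, stood at 93.7, 90.0, 83.3, 81.6 and 78.4 CPM in WT Con and at 90.4, 102, 111, 94.8 and 107 CPM in WT MR mice. Only the lowest MR mouse fell within the Con range, and the log2 fold change was 0.24 (SE 0.08, edgeR adjusted p = 0.0409). It was 0.15 (SE 0.07, edgeR adjusted p = 0.165) in NRF2 KO mice and 0.20 (SE 0.05, adjusted p = 0.00736) on average. The WT call of Ndufab1 was lost without WT_CON_7605, the library labelled WT_CON_7607, WT_CON_7608, WT_MR_7611, WT_MR_7613 or WT_MR_7616, with adjusted p from 0.0622 to 0.0948, and with only the groups compared (0.0743) or all 24 mice (0.0639), while the call on average was kept in all 22 fits that left out a mouse.

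Other complex I subunits fell. Ndufa11, a membrane-arm subunit, stood at 138, 136, 154, 127 and 123 CPM in WT Con and at 124, 126, 113, 122 and 126 CPM in WT MR mice, with -0.15 in WT (edgeR adjusted p = 0.190). In NRF2 KO mice it ranged from 124 to 147 CPM with a median of 134 on Con and from 109 to 134 CPM with a median of 113 on MR, and the log2 fold change was -0.22 (SE 0.07, edgeR adjusted p = 0.0371). The call in NRF2 KO was lost without KO_CON_7617, KO_CON_7620, KO_CON_7621, KO_MR_7625, KO_MR_7627, KO_MR_7628, KO_MR_7629 or KO_MR_7631, at -0.22 to -0.18 and adjusted p from 0.0623 to 0.108. It was also lost with library size only (-0.06, adjusted p = 0.501), with all genes with a count, with only the groups compared and with all 24 mice, the last 3 at adjusted p of 0.0501, 0.0516 and 0.114. Ndufa13 averaged 248 ± 43.2 CPM on Con and 200 ± 14.1 CPM on MR in WT mice (SD, n = 5 each), and 233 ± 27.8 and 198 ± 22.6 CPM in NRF2 KO mice (SD, n = 6 each). Averaged over genotypes Ndufa11 fell by 0.18 (adjusted p = 0.00859), Ndufa13 by 0.27 (SE 0.07, adjusted p = 0.00776), Ndufa3 by 0.20 (SE 0.06, adjusted p = 0.0159) and Ndufb8 by 0.18 (SE 0.06, adjusted p = 0.0356), all accessory subunits. The call of Ndufb8 was lost without WT_CON_7602, WT_CON_7603, WT_CON_7605, WT_MR_7609, WT_MR_7615, KO_CON_7617, KO_CON_7620, KO_CON_7621, KO_MR_7628, KO_MR_7629 or KO_MR_7631, at adjusted p from 0.0512 to 0.0847, and with all 24 mice at 0.0545. Of the core subunits of the same complex, Ndufv1, which binds the NADH, gave 0.04 (SE 0.10) in WT and -0.18 (SE 0.09) in NRF2 KO mice. Ndufs1, an iron-sulfur subunit, gave 0.12 (SE 0.06) and -0.012, and neither was called.

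Complex II, succinate dehydrogenase, which also works in the citric acid cycle, had 1 member lower in NRF2 KO mice. Sdha, the flavoprotein that oxidises succinate, stood at 324, 307, 307, 253 and 271 CPM in WT Con and at 249, 282, 281, 263 and 309 CPM in WT MR mice. The WT groups overlapped and the log2 fold change was -0.08 (edgeR adjusted p = 0.557). In NRF2 KO mice Sdha ranged from 280.2 to 308 CPM with a median of 301 on Con, and from 232 to 279.6 CPM with a median of 254 on MR, with every MR mouse below every Con mouse. Its log2 fold change was -0.22 (SE 0.07, edgeR adjusted p = 0.0408), and the call was lost without KO_CON_7617, KO_CON_7618, KO_CON_7620, KO_CON_7621, KO_CON_7623, KO_MR_7625, KO_MR_7628, KO_MR_7629 or KO_MR_7631, at adjusted p from 0.0529 to 0.0918. It was also lost with library size only, where the value was -0.07 (adjusted p = 0.419), with all genes with a count (0.0531) and with all 24 mice (0.110). Averaged over genotypes Sdha fell by 0.15 (SE 0.05, adjusted p = 0.0357), a call lost without WT_CON_7602, WT_CON_7603, WT_CON_7605, WT_MR_7609, WT_MR_7615, KO_CON_7617, KO_CON_7621, KO_MR_7628, KO_MR_7629 or KO_MR_7631, at adjusted p from 0.0503 to 0.0729, and with all 24 mice at 0.0773. Sdhb, the iron-sulfur subunit, was not called, at -0.13 (SE 0.11) in WT and -0.04 in NRF2 KO mice. Sdhd, a membrane anchor, varied most between mice of a group, with an SD of 0.818 on the log2 scale. Its levels were 79.6, 117, 80.1, 42.1 and 27.5 CPM in WT Con and 129, 136, 75.2, 58.3 and 80.3 CPM in WT MR mice, with a change of 0.48 (SE 0.49, edgeR adjusted p = 0.572). NRF2 KO mice ranged from 17.6 to 147 CPM on Con and from 41.9 to 155 CPM on MR, with 0.76 (SE 0.45, edgeR adjusted p = 0.294), and the diet groups overlapped in both genotypes.

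Sdha, Ndufa11, Cox6a1 and Ndufs7 are shown with the 250 bases before the start of each gene in RefSeq (GRCm38.p6), as a falling gene with 3 matches, a falling gene with 1, a gene that did not pass the test and a rising gene with none. Capitals mark the nuclear respiratory factor 1 (NRF1) motif, which reads GCGCAGGCGC in the promoter of Sdha and allows any base at its sixth letter, and the ETS motif CCGGAAG, which reads CTTCCGG on the other strand. Both strands were searched. The genes shown are picked examples, and the falling genes Ndufa3, Ndufa13, Ndufb8 and Cox5b had no match to either motif in these bases. A relation between matches and the direction of change was not tested. NRF1 is a different protein from NRF2, the product of Nfe2l2. No match of different motifs overlapped in any member. The entries lie at chr13:74350241-74350490 (minus strand) for Sdha, chr17:56717512-56717761 (plus) for Ndufa11, chr5:115348959-115349208 (minus) for Cox6a1 and chr10:80249199-80249448 (plus) for Ndufs7. Gene starts in GENCODE differ from these. There Ndufs7 starts at 80249121, so its whole entry lies inside the gene. In GENCODE Sdha starts at 74350280 and Cox6a1 at 115348981, both on the minus strand, so their entries reach into their own genes.
Sdha: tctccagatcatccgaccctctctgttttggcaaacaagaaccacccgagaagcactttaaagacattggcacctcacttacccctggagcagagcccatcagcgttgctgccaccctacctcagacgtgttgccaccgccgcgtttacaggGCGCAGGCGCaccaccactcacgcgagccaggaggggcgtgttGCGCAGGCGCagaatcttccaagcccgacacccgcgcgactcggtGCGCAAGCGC
Ndufa11: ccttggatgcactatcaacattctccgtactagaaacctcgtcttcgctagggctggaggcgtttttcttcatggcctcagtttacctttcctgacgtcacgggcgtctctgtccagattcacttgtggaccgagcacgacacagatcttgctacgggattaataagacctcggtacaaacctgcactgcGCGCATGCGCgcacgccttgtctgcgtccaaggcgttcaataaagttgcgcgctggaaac
Cox6a1: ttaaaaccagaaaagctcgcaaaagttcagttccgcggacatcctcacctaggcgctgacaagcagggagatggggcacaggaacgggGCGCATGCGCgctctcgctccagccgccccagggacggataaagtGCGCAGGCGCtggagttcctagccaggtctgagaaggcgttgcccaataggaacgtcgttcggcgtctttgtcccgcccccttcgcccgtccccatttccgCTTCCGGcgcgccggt
Ndufs7: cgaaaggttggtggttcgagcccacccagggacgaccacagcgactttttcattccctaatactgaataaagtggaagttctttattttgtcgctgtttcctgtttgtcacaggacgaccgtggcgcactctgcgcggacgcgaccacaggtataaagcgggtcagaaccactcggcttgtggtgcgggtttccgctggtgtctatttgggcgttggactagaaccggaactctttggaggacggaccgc
Of the 82 members 67 matched a RefSeq promoter entry. Among the other 15 were Cox6a2, Cox6c, Cox4i1, Cyc1, Ndufa4l2 and Uqcrb. The NRF1 motif was in the upstream 250 bases of 13 of these 67 (19.4%), against 4.23% of 27025 genes. CCGGAAG was in 12 (17.9%), against 7.83%, and the YY1 motif in 1 (1.49%), against 0.359%. TGATGNAA, the amino acid response element motif, was in 0 (0%), against 3.91%. TGACNNNGC, the antioxidant response element motif that NRF2 binds, was in 6 (8.96%), against 11.5%. A match is a description of these letters only.

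In complex III, which passes electrons from ubiquinol to cytochrome c, 0 of 9 members were called within either genotype by edgeR's quasi-likelihood test, with 1 at an unadjusted p under 0.05 in WT and 3 in NRF2 KO mice, while DESeq2 called 0 and 1. Averaged over genotypes Uqcrb, a small ubiquinone-binding subunit, fell by 0.17 (SE 0.06, adjusted p = 0.0283) and Uqcrh, a hinge protein of cytochrome c1, by 0.16 (SE 0.06, adjusted p = 0.0362). The call of Uqcrb was lost without WT_CON_7602, WT_CON_7603, WT_CON_7605, KO_CON_7617 or KO_MR_7629, at adjusted p from 0.0501 to 0.0622, and with all 24 mice at 0.0684. That of Uqcrh was lost without WT_CON_7602, WT_CON_7603, WT_CON_7605, WT_MR_7609, WT_MR_7615, KO_CON_7617, KO_CON_7620, KO_CON_7621, KO_MR_7625, KO_MR_7629 or KO_MR_7631, at adjusted p from 0.0506 to 0.0746. Cyc1, the cytochrome c1 of the complex, gave -0.0042 in WT and -0.23 (SE 0.09, edgeR adjusted p = 0.0790) in NRF2 KO mice, with an interaction of -0.23 (SE 0.13, adjusted p = 0.723). Uqcrc1, a core protein, gave -0.08 in WT and -0.16 in NRF2 KO mice. Uqcrfs1, the Rieske iron-sulfur protein, gave 0.22 (SE 0.17) and 0.18 (SE 0.16), and neither gene was called.

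Complex IV, cytochrome c oxidase, held Cox6a2 and 2 further members called on average. Cox6c, a small membrane subunit, stood at 809, 847, 860, 699 and 706 CPM in WT Con and at 659, 719, 720, 655 and 754 CPM in WT MR mice, with -0.16 in WT (edgeR adjusted p = 0.229). In NRF2 KO mice it ranged from 711 to 876 CPM with a median of 805 on Con and from 600 to 775 CPM with a median of 683 on MR. The groups overlapped, and the log2 fold change was -0.25 (SE 0.08, edgeR adjusted p = 0.0401), a call lost without the same 8 mice as that of Ndufa11, at adjusted p from 0.0585 to 0.105. It was also lost with library size only (-0.09, adjusted p = 0.279), with all genes with a count (0.0513), with only the groups compared (0.0503) and with all 24 mice (0.0738). Averaged over genotypes Cox6c fell by 0.20 (adjusted p = 0.0113) and Cox5b, a peripheral subunit, by 0.22 (SE 0.07, adjusted p = 0.0199). Cox4i1, the main form of subunit IV, averaged 481 ± 29.0 CPM in WT Con, 511 ± 21.8 in WT MR (SD, n = 5 each), 512 ± 45.4 in NRF2 KO Con and 455 ± 27.6 in NRF2 KO MR mice (SD, n = 6 each). Its interaction was -0.26 (SE 0.10) with an unadjusted p of 0.0181 and an edgeR adjusted p of 0.530. Of the other isoform pairs, Cox7a1, the heart and muscle form, gave -0.03 in WT and 0.39 (SE 0.30) in NRF2 KO mice, and Cox7a2, the form of most tissues, 0.22 (SE 0.08, edgeR adjusted p = 0.0811) and 0.07. Cox6b2, the testis form of a subunit facing cytochrome c, averaged 0.58 CPM and gave -0.49 (SE 0.50) and -0.65 (SE 0.37), the lowest values of the complex. Cox5a, Cox6b1, Cox7a2l and Cox8a were not called in either genotype.

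In complex V, the ATP synthase, 0 of 17 members were called within either genotype by edgeR's quasi-likelihood test, with 2 at an unadjusted p under 0.05 in WT and 1 in NRF2 KO mice, and 0 in both by DESeq2. Atp5k, subunit e of the membrane part, averaged 543 ± 83.7 CPM on Con and 451 ± 50.6 CPM on MR in WT mice (SD, n = 5 each), and 560 ± 45.0 and 479 ± 57.8 CPM in NRF2 KO mice (SD, n = 6 each). It fell by 0.25 (SE 0.07, edgeR adjusted p = 0.0124) on average, and the call was kept in all 22 fits that left out a mouse, but not with library size only (-0.12, adjusted p = 0.0898). Atp5b, the catalytic beta subunit, gave 0.18 (SE 0.08, edgeR adjusted p = 0.125) in WT and 0.04 in NRF2 KO mice. Atp5a1, the alpha subunit, gave 0.05 and -0.13, and Atp5c1, the central stalk gamma subunit, gave 0.10 and -0.07, with neither called. The c subunit is encoded by 3 genes, Atp5g1, Atp5g2 and Atp5g3, and their changes were 0.06, 0.10 and 0.03 in WT and -0.011, -0.0053 and -0.14 in NRF2 KO mice.

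**Figure D3:**
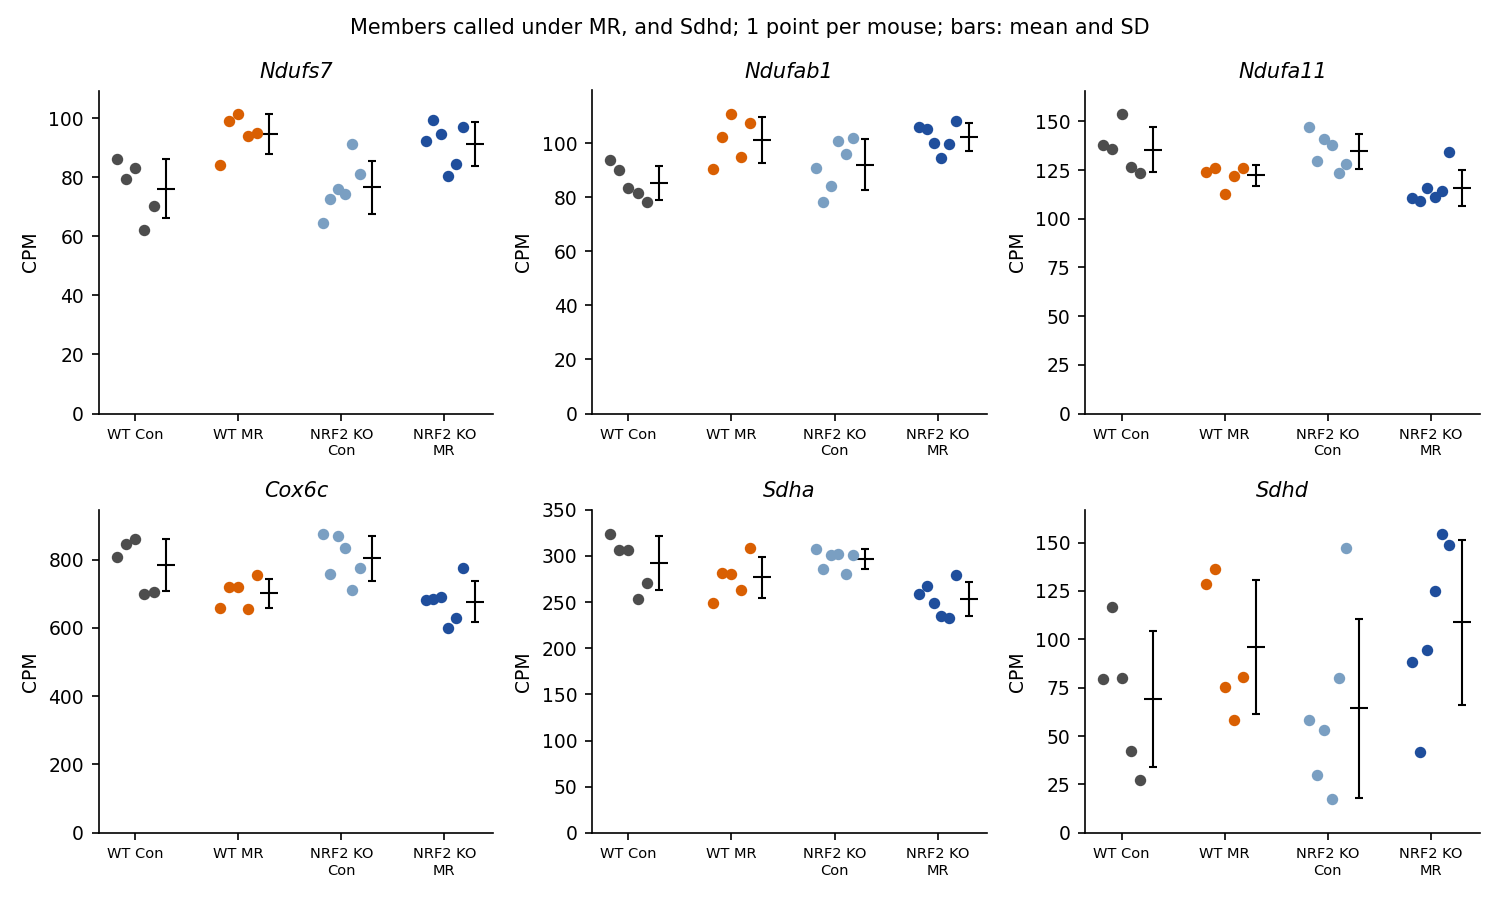
Levels of Ndufs7, Ndufab1, Ndufa11, Cox6c, Sdha and Sdhd in each mouse (CPM, 3′ counts), with the group mean and SD. Ndufs7 and Ndufab1 tend to be higher and Ndufa11, Cox6c and Sdha lower on MR, while Sdhd spreads widely within each group.

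Few members, and few of all genes, were called between genotypes at a given diet. On Con, edgeR's quasi-likelihood test called 0 of 82 members, where 2.07% of all genes were called, with 4 at an unadjusted p under 0.05 (14.4% of all genes), and DESeq2 called 1, Ndufa4l2. On MR it called 1 of 82 (1.22%), Cox6a2, which was lower, against 1.93% of all genes, or 1.38% in that direction. The interaction of genotype and diet had 0 of 82 calls by edgeR and 0 by DESeq2, against 0.045% of all genes, with 2 at an unadjusted p under 0.05, Ndufa4l2 and Cox4i1 (7.56% of all genes). The median interaction was -0.076, against 0.0033 over all genes, and 16 of the 82 values were above 0, where 50.6% of all genes were. Without the library labelled WT_CON_7607 the median interaction was -0.033, with 0 calls, and the median difference on Con was -0.0076 in place of 0.030. The 95% interval of the interaction lay within 1.5-fold for 73 members (89%), against 51.1% of all genes. The members were also measured more precisely, with a median SE of 0.13 against 0.195 over all genes.

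Groups did not overlap for 3 members in WT (9.32% of all genes), namely Cox6a2 and Cox7a2 higher and Ndufa4l2 lower on MR. In NRF2 KO mice this held for 2 members (5.45% of all genes), Cox6a2 and Sdha. Between genotypes it held for Ndufa4l2 on Con, 1 member (1.83% of all genes), and for Ndufv1 on MR, 1 member (4.6% of all genes), lower in NRF2 KO mice by -0.27 (SE 0.09, edgeR adjusted p = 0.149). In the fit of only the groups compared, Ndufv1 was the 1 member called on MR, in place of Cox6a2, at -0.26 (edgeR adjusted p = 0.0279).

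**Figure D4:**
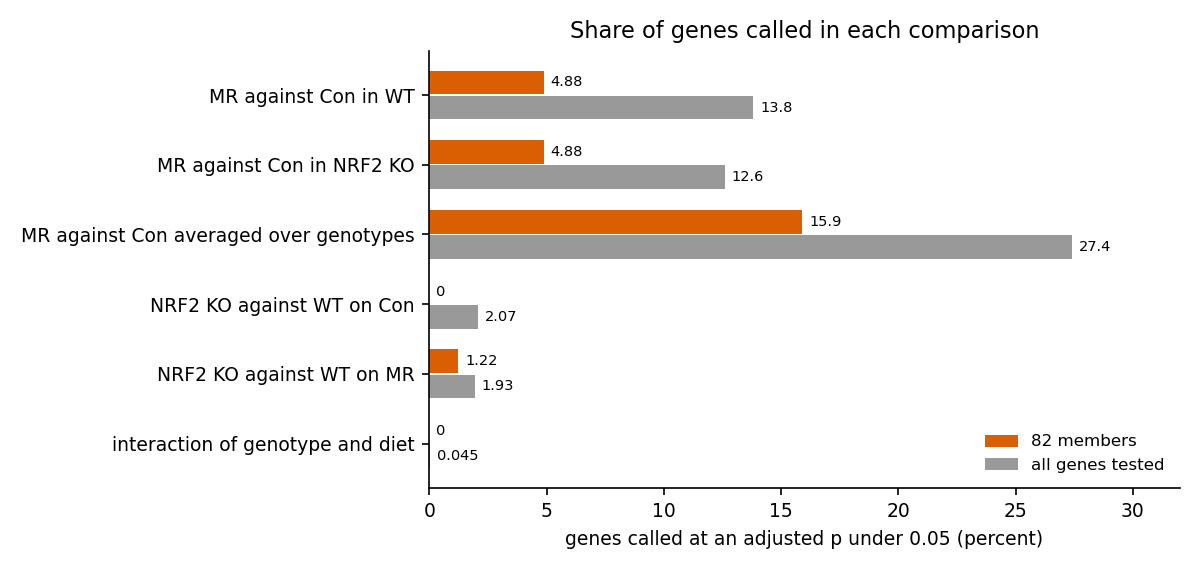
Percent of the 82 subunits and of all 13336 genes called at an adjusted p under 0.05 in each comparison, as bars starting at 0. With TMM scaling and all 22 mice the share of subunits was below that of all genes in the diet comparisons. It was not with library size only on average (35.4% against 34.1%) or without KO_MR_7632 in NRF2 KO mice (12.2% against 11.8%). In the genotype comparisons and the interaction the shares of all genes were 2.07%, 1.93% and 0.045%. These are too small for 82 genes to fall clearly below them.

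Levels of different complexes varied together from mouse to mouse within groups. Over the 22 mice, deviations of the mean log2 CPM from the group mean correlated at r = 0.956 between complexes I and III, 0.957 between I and V, and 0.983 between III and V. Complex IV without Cox6a2 correlated with complex I at 0.872, and complex II without Sdhd at 0.914. With all their members these values were 0.812 and 0.77, and the lowest pair, II and IV, gave 0.625. The points share library and scaling, and these values are descriptions. Complex I correlated at 0.801 with the mitochondrial-encoded subunits, 0.737 with the citric acid cycle, 0.569 with cytosolic ribosomal proteins, 0.561 with Alb and 0.059 with the log2 of the total count. Single members correlated with the mean of the other members at a median of 0.808, with 41 of 82 at 0.8 or more and 4 below 0, Cox6a2, Cox7a2l, Atp5g2 and Cox6b2. In the mean log2 CPM over all members without Cox6a2, group means were 7.22 on Con and 7.23 on MR in WT mice, and 7.26 and 7.21 in NRF2 KO mice. Complex IV averaged 6.59 in WT Con and 6.87 in WT MR mice, but 7.18 in both without Cox6a2.

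**Figure D5:**
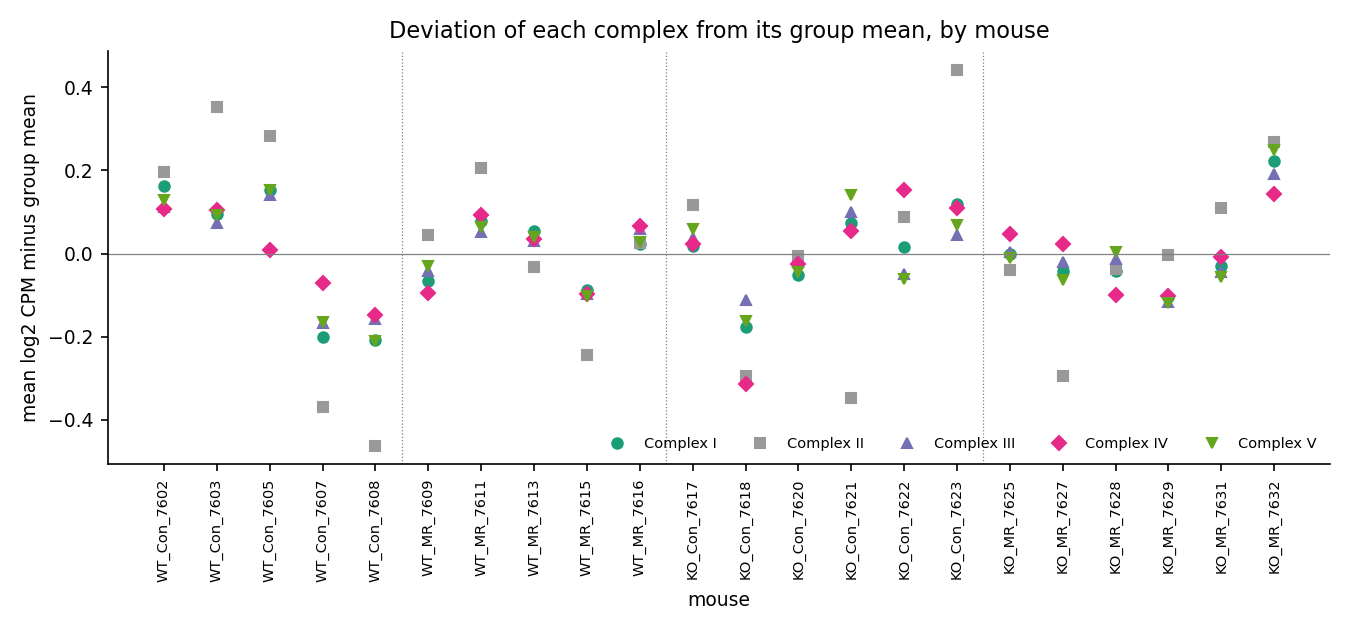
Deviation of each mouse's mean log2 CPM from its group mean, for the 5 complexes. The complexes tend to move together across mice, with r from 0.625 between II and IV to 0.983 between III and V. Mouse KO_MR_7632 stands high while WT_CON_7608 and the library labelled WT_CON_7607 stand low.

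The other parts of the pathway were read from lists of related genes. With MR, edgeR called 13.8% of all genes in WT and 12.6% in NRF2 KO mice. In the same order, the shares were 12.5% and 25% for mitochondrial-encoded subunits and 8% and 10% for assembly factors. They were 18.8% and 0% for regulators, and 37.5% and 0% for carriers and exchangers. Citric acid cycle genes had 30.8% and 15.4%, and cytosolic ribosomal protein genes 76.3% and 47.3%. Not all mitochondrial-encoded subunits had counts. Those that did were mt-Nd1 to mt-Nd6, mt-Co1 and mt-Cytb, with no gene of complex V. Of these 8, 1 fell in WT (mt-Nd6, -0.58, edgeR adjusted p = 0.0195) and 2 in NRF2 KO mice (mt-Nd6, -0.79, adjusted p = 0.00125, and mt-Nd2, -0.57, adjusted p = 0.00697), with medians of -0.30 and -0.25. They took 8.39% to 15.2% of the counts, with medians of 12.9% on Con and 10.4% on MR in WT mice and of 10.8% and 9.69% in NRF2 KO mice. The WT Con mice stood apart from each other, at 12.9%, 15.2%, 13.4%, 8.59% and 9.14%, and the last 2, the library labelled WT_CON_7607 and WT_CON_7608, lay at the low end of the WT MR range of 9.06% to 11.7% or below it. Without the library labelled WT_CON_7607 the WT Con median was 13.1% and mt-Nd6 gave -0.64 (edgeR adjusted p = 0.0158). Of 50 assembly factors 3 rose and 1 fell in WT and 1 rose and 4 fell in NRF2 KO mice, with Tmem70, which helps build complex V, higher in both (0.40, adjusted p = 0.0146, and 0.43, adjusted p = 0.00555). Of 16 regulators 3 rose in WT, among them Esrra, a nuclear receptor for mitochondrial genes (0.42, adjusted p = 0.00631), and 0 in NRF2 KO mice by edgeR, with 2 at an unadjusted p under 0.05 and 1 called by DESeq2. Of 16 carriers and exchangers 6 rose in WT, among them Slc25a5, an ADP/ATP carrier (0.40, adjusted p = 0.0227), and 0 in NRF2 KO mice, with 4 at an unadjusted p under 0.05 and 1 called by DESeq2. Of 13 citric acid cycle genes 4 rose in WT, among them Idh3a, a subunit of isocitrate dehydrogenase (0.45, adjusted p = 0.0375), and 2 in NRF2 KO mice. Differences between genotypes in these counts were not tested, and the interaction had 0 calls in each list by edgeR and 0 by DESeq2. Of 93 cytosolic ribosomal protein genes 71 rose in WT, led by Rpl12 (0.86), and 43 rose and 1 fell in NRF2 KO mice, a list of another process given here only for its size.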

How the data were processed

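The livers of 24 mice gave 1 QuantSeq 3′ library each. The raw count table of the authors holds reads per gene, made from the GRCm38 (mm10) genome with software of the kit's maker, whose aligner and annotation are not given in the sources used here. The authors also deposited normalized signal values, which equal the counts over a DESeq2 size factor for each mouse (largest relative deviation 5.1e-15; R 3.4.3 and DESeq2 1.18.1 per the submitters' processing notes), and these served for an alternative only. Every gene in the table had at least 72 counts over the 24 mice.

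Differences were tested on the counts with edgeR 4.0.16 (R 4.3.3) in 22 mice, using TMM scaling, the filter filterByExpr, 1 mean per group and robust quasi-likelihood F-tests. Genes were called below an adjusted p (Benjamini-Hochberg, 13336 genes) of 0.05, and 1824 genes did not pass the filter. Log2 CPM used a prior count of 2, and intervals are at 95%. Cox6a2 and Ndufa4l2, picked for their large changes in these data, were also compared by two-sided exact permutation. The scripts were tested on simulated data. DESeq2 1.42.0 and limma 3.58.1 gave alternatives. Positions came from GENCODE M21 and promoters from RefSeq.

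The members and the lists were chosen with earlier results of these data known. Members are named with values when called (up to 10 with the largest changes in a comparison), in isoform sets, as core subunits, as the extremes of a complex or for the 3 smallest interaction p-values. Genes of other lists are named when called and among the 3 largest changes. Some genes that these rules would name are not reported here. No batch is given in the labels. No library was a copy of another, with a smallest chi-square per gene of 8.32. The last 150 bases of 11 of the 82 members (Ndufb2, Ndufb6, Ndufs5, Uqcrc2, Cox5a, Cox7c, Atp5c1, Atp5g1, Atp5g2, Atp5h and Atp5o) matched a transcript of another gene. A match needed 95% identity or more over at least 75% of the length. It could lie on either strand and anywhere in the transcript, so these counts are uncertain. For Ndufb2, Ndufb6, Uqcrc2 and Cox5a the gene matched was the opposite-strand neighbour that overlaps them. In the last 500 bases, 11 members (Ndufa2, Ndufa3, Ndufa4l2, Ndufb2, Ndufb6, Uqcrc2, Uqcrh, Cox5a, Cox6a2, Cox6c and Atp5md) overlap an exon on the opposite strand and 1 (Cox7c) an exon on its own strand, whose reads may be shared.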

Additional observations from a re-analysis of the deposited data

Results flagged for a closer look

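Values far from the rest of their group, by Dixon's 95% limit, were found in 9 of 92 groups of values, where chance gives about 1 in 20. Mouse KO_MR_7632 gave 7 of them, each high against its group. It had 134 CPM of Ndufa11 (others 109 to 116), 241 CPM of Ndufa13 (179 to 199), 506 CPM of Cox4i1 (429 to 456) and 130 CPM of Cyc1 (103 to 111). Its mean log2 CPM was 7.09 for complex I (others 6.77 to 6.87), 7.72 for complex V (7.35 to 7.47) and 7.36 over all members (7.04 to 7.15). Without it, 10 of 82 members (12.2%) were called with MR in NRF2 KO mice in place of 4, against 11.8% of all genes in that fit. Mouse WT_CON_7602 had a low level of Cox6a2, at 0.146 CPM against 0.336 to 0.433 in the other WT Con mice. The library labelled WT_CON_7607 had 324 CPM of Nfe2l2, against 106 to 125 in the other WT Con mice.

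In the mice that were not part of the fits, Cox6a2 was above the mice of their own group that were. It stood at 1.5 CPM in WT_CON_7604, from 25 counts, where the 5 WT Con mice ranged from 0.146 to 0.433 CPM. In WT_MR_7612 it stood at 12.9 CPM, from 306 counts, where the WT MR mice ranged from 5.38 to 10.1 CPM. The causes were not tested.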

How the results depend on the processing

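Counts of called members and single calls near the threshold changed with the processing, while none of the called fold changes that were recomputed reversed under the alternatives tried. In WT mice the count of 4 was 9 with library size only, 2 with only the groups compared and 2 with all 24 mice, and 1 to 5 with 1 mouse left out. In NRF2 KO mice the count of 4 was 8 with library size only, 1 with all genes with a count, 7 with the DESeq2 test, 2 with only the groups compared, 1 with all 24 mice and 12 with all 24 mice and quality weights, and 1 to 10 with 1 mouse left out. Averaged over genotypes the count of 13 was 29 with library size only (35.4%, against 34.1% of all genes) and 9 to 15 with 1 mouse left out. NRF2 KO against WT gave 1 on Con with the DESeq2 test, 0 with any mouse left out, and on MR 0 with at least 10 counts in every mouse or with the normalized values in limma, and 0 to 1 with 1 mouse left out. Library size only gave medians of 0.10 in NRF2 KO and 0.12 on average. With 1 mouse left out, median log2 fold changes ran from -0.021 to 0.070 in WT, -0.096 to -0.031 in NRF2 KO, -0.036 to 0.0083 on average, -0.019 to 0.066 on Con, -0.081 to -0.011 on MR and -0.12 to -0.030 for the interaction, whose count stayed 0. The cause was not tested. No paired analysis was possible because the mouse numbers in the titles are all different. Depth limits members under 5 CPM such as Cox6a2, Cox6b2 and Ndufa4l2, while Sdhd varied widely at a higher level.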
